A study of Marchantia polymorpha with 6 samples.

Results

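The 148 genes described here gave the most abundant transcripts of untreated thalli, the flat plant bodies of the liverwort Marchantia polymorpha. Genes were ranked by mean CPM (reads per 1000000 reads of the file total) over the 3 control libraries, and ranks 1 to 150 were taken. The rule then left out the phenylalanine ammonia-lyase gene MpPAL8 (Mp4g10060) and the actin gene MpACTIN7 (Mp6g11010), which leaves 148 of 19472 gene IDs (0.760%). It also left out V chromosome IDs and a stretch of chromosome 4 IDs, of which none was in ranks 1 to 150. All 148 passed the filter on low counts, with 11703 reads or more in every library. The genes were chosen by their control levels, so those levels are a description. CPM is not divided by transcript length, so a gene's place in this order is a share of reads, not a number of transcripts per cell.

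Poly(A) RNA was sequenced from 3 samples of thalli grown on Gamborg medium, diluted to 0.5 strength, that held 2.5 µM sodium arsenite, the salt of trivalent arsenic. The 3 control samples grew on the same medium without it. Both groups carried the genotype labelled Cam1 and grew at 21 °C. No source used here gives the age of the plants, the duration of the treatment or whether replicates came from separate plants or cultures, so p-values measure the spread between these samples, which may be technical. The study's title concerns the arsenite transporter ACR3, and the question put to these libraries is how transcript levels change when arsenite is present during growth.

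In green plant tissue, a small number of genes supplies a large part of the messenger RNA. They typically serve photosynthesis, protein synthesis, primary carbon metabolism, water transport and the cytoskeleton. A change in such a gene moves many reads even where its fold change is small. The file totals behind the CPM of every other gene include those reads. The reference table gave a symbol to 18 of the 148 genes, so the other 130 are called by their IDs, with no role.

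Library totals ran from 26579324 to 31573867 reads with arsenite and from 26691102 to 47532310 reads in controls. Markers of antheridia and sperm, MpDUO1 and MpPRM, summed to between 1.08 and 1.62 CPM with arsenite and between 1.65 and 3.32 CPM in controls. Markers of oil body cells, MpC1HDZ, MpSYP12B, MpERF13 and MpABCG1, summed to between 41.8 and 68.1 CPM with arsenite and between 78.2 and 112 CPM in controls. MpPRM was at 0 in all libraries but control replicate 1, so the first of these sums is almost that of MpDUO1 alone, and the other 5 markers had reads in every library. Those of rhizoids and gemma cups, MpKAR and MpGCAM1, summed to 33.5 to 57.3 CPM with arsenite and 33.8 to 42.2 CPM in controls, and those of vegetative growth, MpPIN1, MpYUC2 and MpNOP1, to 474 to 521 CPM with arsenite and 470 to 577 CPM in controls. Their part in the results below was not tested.

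The 148 genes took almost the same share of reads with and without arsenite. Where 3 values of a group stand together, they belong to replicates 1, 2 and 3 in that order. The share was 23.9%, 23.4% and 21.6% of the reads with arsenite and 23.3%, 23.9% and 23.5% in controls. The means were 22.9% ± 1.17 with arsenite and 23.6% ± 0.287 in controls (SD, n = 3 each), and the groups overlapped. The 10 genes with the highest control level held 4.38% ± 0.411 with arsenite and 4.27% ± 0.176 in controls. The highest 50 held 12.7% ± 1.03 with arsenite and 13.0% ± 0.429 in controls, the greater part of what all 148 held. No gene dominated these libraries, since the gene with the highest control level, Mp2g07490, held 0.396% ± 0.0311 of the reads with arsenite and 0.537% ± 0.119 in controls.

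Mp2g07490 ranked 8 with arsenite and 1 in controls. It had 4304, 3856 and 3706 CPM with arsenite, against 6715, 4932 and 4448 CPM in controls. The groups did not overlap, but control replicate 1 stood far above the other two controls, and the log2 fold change (arsenite over control) of -0.41 ± 0.20 (SE) did not pass the test (adjusted p = 0.282). MpEF1 (Mp3g23400) encodes translation elongation factor 1, which carries charged tRNAs to the ribosome, and its promoter is widely used to drive transgenes in this species. Its levels were 4357, 4177 and 4532 CPM with arsenite, against 5124, 4235 and 5114 CPM in controls. Control replicate 2 lay among the arsenite libraries, so the groups overlapped, and the log2 fold change of -0.12 had a 95% interval from -0.48 to 0.24 (adjusted p = 0.695).

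The gene with the highest arsenite level was MpTIP1 (Mp1g20890), of the aquaporin class that conducts water across the vacuolar membrane. It ranked 1 with arsenite and 9 in controls, at 5826, 6688 and 6474 CPM with arsenite, against 4012, 3033 and 4310 CPM in controls. Every arsenite library was above every control library, and the log2 fold change of 0.77 ± 0.18 (SE) had a 95% interval from 0.35 to 1.20, but it did not pass over all tested genes (adjusted p = 0.0638). DESeq2 and voom called it higher, with adjusted p down to 6.79e-05, while leaving out single libraries gave up to 0.219.

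The other 9 of the 12 highest control levels belonged to genes without a symbol. Mp3g03990 had 5731, 4170 and 3791 CPM with arsenite and 4212, 5900 and 4027 CPM in controls, with 1 library in each group well above the other two. Mp8g15740 showed the same shape, with 5198, 3483 and 2925 CPM with arsenite and 2969, 5241 and 3820 CPM in controls. For Mp4g10850, Mp6g07320 and Mp2g12030 the group means were 4238 ± 448, 4151 ± 556 and 3823 ± 565 CPM with arsenite and 4420 ± 934, 4179 ± 413 and 4030 ± 574 CPM in controls (SD, n = 3 each). These 5 genes had log2 fold changes between -0.05 and 0.01, none of which passed. Mp7g08890, Mp4g13730 and Mp2g24130 averaged 4477 ± 811, 4009 ± 562 and 3053 ± 268 CPM with arsenite and 3859 ± 372, 3528 ± 665 and 3371 ± 816 CPM in controls, and their groups overlapped. Mp7g06790 did not overlap, with 2593, 2460 and 2117 CPM with arsenite against 2976, 3377 and 3312 CPM in controls, where the log2 fold change was -0.41 ± 0.15 (SE) with an adjusted p of 0.181, and DESeq2 called it lower.

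**Figure D1:**
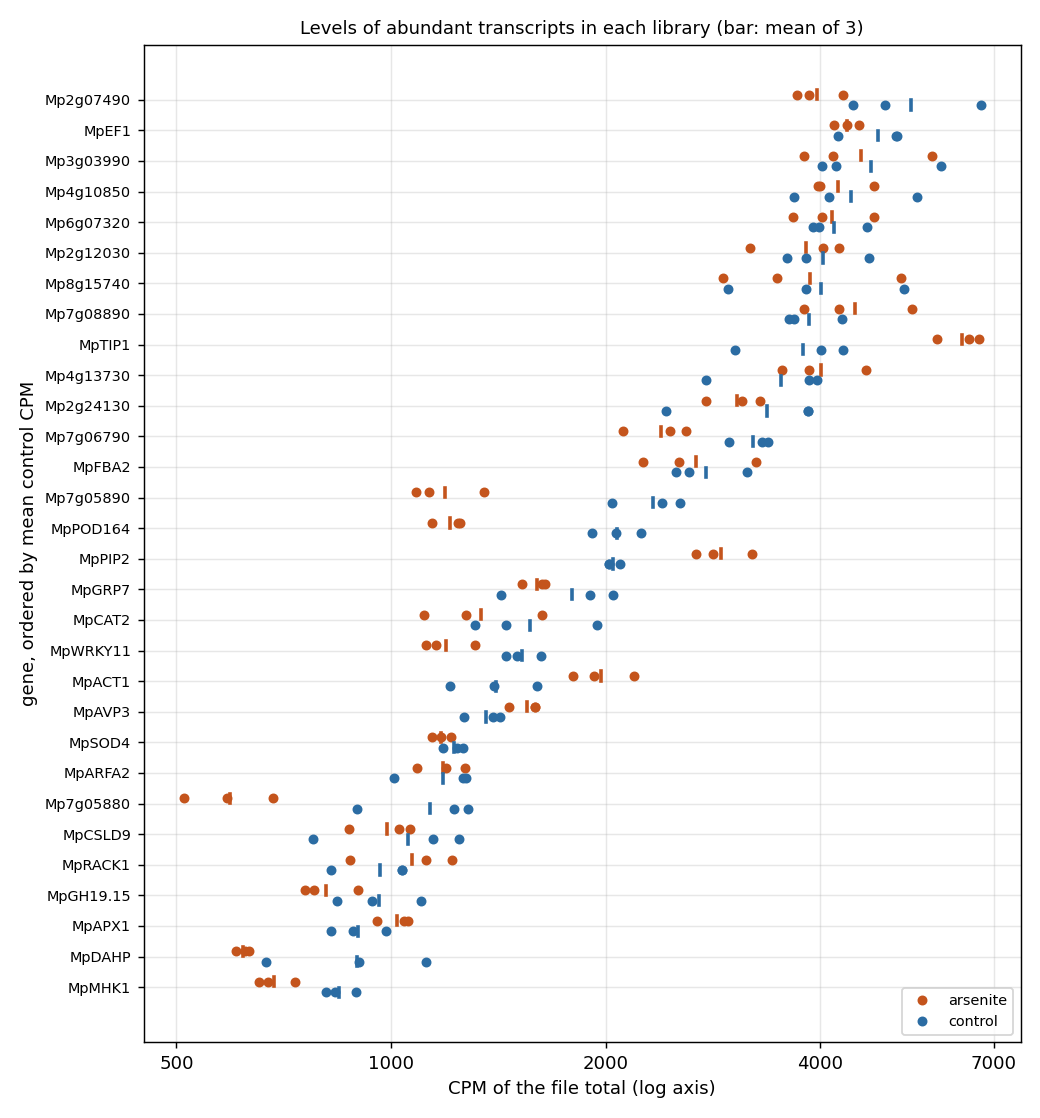
Level of 30 abundant genes in each library, in CPM of the file total on a log axis, ordered by mean control level: the 12 highest, all 18 with a symbol and the 3 lowered genes. Points are libraries, short bars are means of 3, and arsenite is drawn above control in each row. Mp2g07490, Mp7g06790, Mp7g05890, MpPOD164, MpWRKY11, Mp7g05880, MpDAHP and MpMHK1 lie wholly below their controls, and MpTIP1, MpPIP2, MpACT1 and MpAVP3 wholly above.

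Growth on arsenite was accompanied by lower levels of 3 of the 148 genes, the neighbours Mp7g05890 and Mp7g05880 and the peroxidase gene MpPOD164, and 0 were higher (edgeR's quasi-likelihood test, adjusted p under 0.05). Over all 13544 tested genes 4.18% were called, 2.04% higher and 2.14% lower, and among the 148 the share called was 2.03%. Both genes that the rule left out, at control ranks 56 and 107, were also called by edgeR. MpPAL8 was lower (log2 fold change -1.30, adjusted p = 0.0153) and MpACTIN7 was higher (log2 fold change 0.72, adjusted p = 0.03995). The count of 0 higher and the share of 2.03% therefore depend in part on leaving them out. Since the control levels chose the genes, a lower arsenite level is favoured by the choice and nothing is read from the split. With the genes ranked over all 6 files, 1 was higher and 3 were lower, and ranked over the arsenite files 3 were higher and 2 lower. At an unadjusted p under 0.05 the 148 had 9 higher and 20 lower (background 10.8% and 10.3%). DESeq2 called 6 higher and 9 lower (background 5.48% and 4.73%), and voom 2 higher and 3 lower (background 1.99% and 1.93%). Groups did not overlap for 38 of the 148 genes, 15 higher and 23 lower, where the background was 28.1% of all tested genes, 12.1% higher and 16.0% lower.

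Mp7g05890, ranked 68 with arsenite and 24 in controls, had 1351, 1131 and 1084 CPM with arsenite, against 2043, 2403 and 2545 CPM in controls. It fell by 0.95 on the log2 scale (SE 0.16, 95% interval from -1.32 to -0.58, adjusted p = 0.0269). Its neighbour Mp7g05880, at control rank 88, had 683, 589 and 512 CPM with arsenite, against 896, 1224 and 1282 CPM in controls. All arsenite libraries were below all controls, and it fell by 0.91 on the log2 scale (SE 0.19, 95% interval from -1.35 to -0.47, adjusted p = 0.0450). The level of Mp7g05880 stayed near the same percentage of that of Mp7g05890, at 50.5%, 52.1% and 47.2% with arsenite and 43.9%, 51.0% and 50.4% in controls. No symbol or role is annotated for either gene, and whether reads can be placed between them is not known, since no source states how reads that match more than 1 place were treated.

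MpPOD164 (Mp8g01700) belongs to the class III peroxidases, secreted enzymes that oxidise phenols and other substrates with hydrogen peroxide. It had 1140, 1251 and 1243 CPM with arsenite, against 1912, 2067 and 2244 CPM in controls, with each group tight and a wide gap between them. MpPOD164 fell by 0.75 on the log2 scale (SE 0.13, 95% interval from -1.06 to -0.44, adjusted p = 0.0303). It alone made up 23.1% of the summed CPM of 164 peroxidase genes with arsenite and 32.7% in controls. Of 132 tested peroxidase genes 5 rose and 11 fell, where the background was 2.04% higher and 2.14% lower. The sum over all peroxidases was 5295 ± 516 CPM with arsenite and 6356 ± 183 CPM in controls (SD, n = 3 each).

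Most of the 3 calls were lost when a library was left out. Without arsenite replicate 1, Mp7g05890 kept its call, Mp6g04110 gained one, and the other two were lost. Leaving out any of the 5 other libraries left 0 of the 148 called at an adjusted p under 0.05, while the calls over all genes dropped as well. The log2 fold changes themselves moved little over 12 alternatives, from -1.03 to -0.88 for Mp7g05890, from -1.05 to -0.81 for Mp7g05880 and from -0.80 to -0.69 for MpPOD164.

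The lowest fold change belonged to Mp3g18890, which has no symbol and missed the threshold with edgeR. It had 654, 480 and 467 CPM with arsenite, against 1172, 1374 and 815 CPM in controls, and its log2 fold change was -1.05 ± 0.24 (SE) at an adjusted p of 0.0576. DESeq2 called it lower, as did edgeR with library totals in place of TMM factors or without the filter. Mp2g07510 was the closest to a call on the higher side, with 1974, 2315 and 1768 CPM with arsenite, against 1047, 1332 and 1243 CPM in controls, and its log2 fold change was 0.76 ± 0.17 (SE) at an adjusted p of 0.0526, and DESeq2 and voom called it higher. Both were named after their values were seen. Neither gene's groups overlapped.

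**Figure D2:**
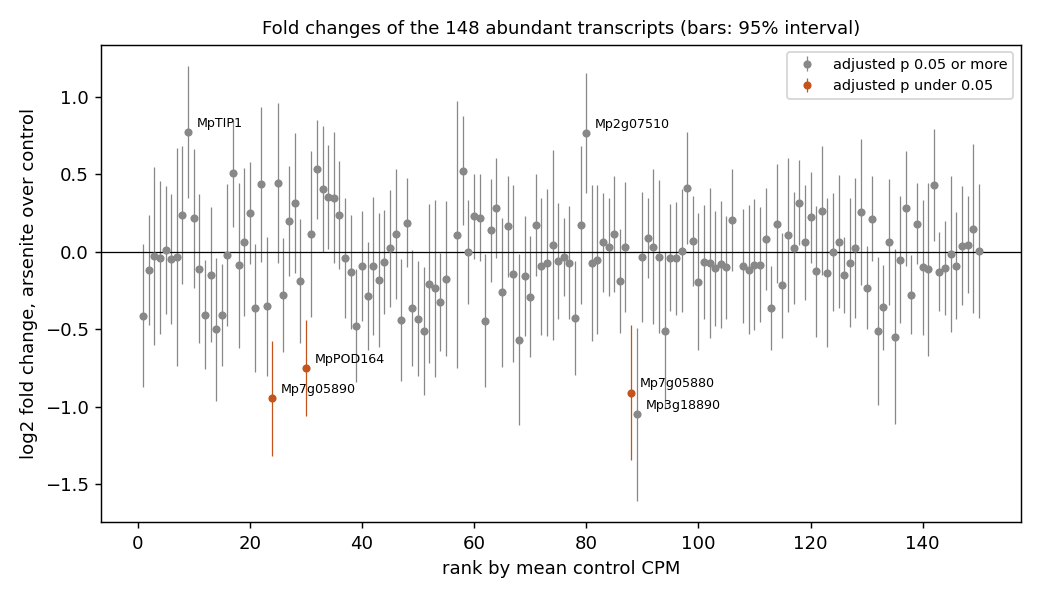
Log2 fold change (arsenite over control) of each of the 148 genes against its rank by mean control CPM, with 95% intervals. Coloured points are the 3 genes with an adjusted p under 0.05, all below 0, and the remaining points scatter on both sides of 0 at every rank.

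Fold changes of the 148 genes were small. Their median was -0.045 on the log2 scale and the quartiles were -0.18 and 0.11, beside a median of -0.0043 and quartiles of -0.21 and 0.22 over all tested genes. An absolute log2 fold change over 1 occurred in 1 of the 148, against a background of 8.18%, and one over 0.5 in 15, against 21.7%. The median absolute log2 fold change was 0.1495 for the 148 genes and 0.2158 over all tested genes. At control ranks 151 to 500 and 501 to 2000 it was 0.162 and 0.180. At ranks 2001 to 5000 and 5001 to 10000 it was 0.173 and 0.181. Tested genes from rank 10001 on had 0.425. The contrast with all tested genes is therefore partly one with genes of low control level. For 80 of the 148 genes (54.1%) the 95% interval lay wholly within a 1.5-fold change in either direction, and the background was 43.8%. The median SE was 0.17 both for the 148 genes and for all tested genes, but the upper parts differed. The upper quartile of the SE was 0.19 for the 148 genes and 0.29 for all tested genes, and the highest SE was 0.36 and 2.24.

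The 148 genes held 2 aquaporin genes with a symbol, MpTIP1 and MpPIP2, and neither passed with edgeR. The plasma membrane aquaporin MpPIP2 (Mp4g17210) had 2680, 3207 and 2827 CPM with arsenite, against 2092, 2024 and 2022 CPM in controls, whose spread was among the 4 smallest of the 148 genes. Its log2 fold change was 0.53 ± 0.13 (SE, 95% interval from 0.21 to 0.85, adjusted p = 0.0788), and DESeq2 called it higher. MpTIP1 and MpPIP2 held nearly all reads of their classes, 98.4% of the 2 TIP genes and 99.5% of the 3 PIP genes with arsenite, and 98.9% and 99.2% in controls. Of the less abundant aquaporin genes, MpTIP2 rose, at 104 CPM with arsenite and 41.1 CPM in controls (adjusted p = 0.0220), and MpNIP fell, at 19.5 CPM with arsenite and 34.6 CPM in controls (adjusted p = 0.0321). MpAVP3 (Mp4g18110) carries a symbol that in Arabidopsis stands for the proton-pumping pyrophosphatase of the vacuole. It had 1594, 1466 and 1592 CPM with arsenite, against 1389, 1265 and 1420 CPM in controls, so the groups did not overlap (log2 fold change 0.22 ± 0.12, SE, adjusted p = 0.335).

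The actin gene MpACT1 (Mp6g10990), for the protein of the thin cytoskeletal filaments, had 1802, 2192 and 1926 CPM with arsenite, against 1396, 1209 and 1602 CPM in controls. The groups did not overlap, and the log2 fold change of 0.52 ± 0.15 (SE) did not pass with edgeR (adjusted p = 0.106) but did with DESeq2. Its close relative MpACTIN7, set apart by the rule, rose with a log2 fold change of 0.72 (adjusted p = 0.0400), and reads of such similar genes may be split between them. MpACT1 held 52.9% of the CPM of 3 actin genes with arsenite and 55.2% in controls.

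Besides MpEF1, the genes with a symbol included MpRACK1, MpGRP7 and MpARFA2. MpRACK1 (Mp3g15630), a scaffold protein of the small ribosomal subunit, had 877, 1120 and 1218 CPM with arsenite, against 1035, 823 and 1036 CPM in controls, and the groups overlapped (log2 fold change 0.18, 95% interval from -0.20 to 0.57). MpGRP7 (Mp1g18780), named like a glycine-rich RNA-binding protein of Arabidopsis, had 1529, 1629 and 1646 CPM with arsenite, against 1901, 1426 and 2050 CPM in controls. Its arsenite libraries lay together within the wide span of the controls (log2 fold change -0.13, 95% interval from -0.50 to 0.24). MpARFA2 (Mp3g13920), named like the small GTPases of vesicle budding in Arabidopsis, averaged 1183 ± 92.5 CPM with arsenite and 1182 ± 149 CPM in controls (SD, n = 3 each; 95% interval of the log2 fold change from -0.29 to 0.35). None of these 3 or MpEF1 passed with edgeR, DESeq2 or voom.

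In carbon metabolism, MpFBA2 (Mp6g07690), an aldolase of glycolysis and of the Calvin cycle, had 3247, 2533 and 2255 CPM with arsenite, against 2510, 3161 and 2617 CPM in controls. It made up 70.8% of the CPM of 4 aldolase genes with arsenite and 71.8% in controls, and 0 of the 4 passed (log2 fold change of MpFBA2 -0.02, 95% interval from -0.48 to 0.43). MpDAHP (Mp8g10340) encodes the enzyme that opens the shikimate pathway, the route to phenylalanine. It had 607, 632 and 624 CPM with arsenite, the second smallest spread of the 148 genes there, against 667, 1121 and 901 CPM in controls, and did not pass (log2 fold change -0.51 ± 0.20, SE, adjusted p = 0.210). The 1 gene with a symbol for the small subunit of the carbon-fixing enzyme Rubisco, MpRBCS, was at 80.9 ± 18.6 CPM with arsenite and 59.5 ± 16.2 CPM in controls, far below the 148 genes. Counts of near-identical family members are uncertain here.

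Of the enzymes with a symbol that act on superoxide or hydrogen peroxide, MpPOD164 fell, as given above, and MpSOD4 and MpAPX1 did not pass. MpSOD4 (Mp6g09390), a superoxide dismutase, had 1177, 1212 and 1140 CPM with arsenite, against 1260, 1183 and 1236 CPM in controls, and was among the 4 genes with the smallest spread in each group. Its log2 fold change of -0.03 had a 95% interval from -0.29 to 0.22 (adjusted p = 0.888). MpAPX1 (Mp4g08890), an ascorbate peroxidase, had 957, 1058 and 1044 CPM with arsenite, against 984, 823 and 886 CPM in controls, and the groups overlapped (log2 fold change 0.21, 95% interval from -0.06 to 0.49). They made up 68.6% of the CPM of 5 superoxide dismutase genes and 61.3% of 5 ascorbate peroxidase genes with arsenite, and 67.1% and 58.0% in controls, and 0 of the 10 genes passed. MpCAT2 (Mp4g06600), whose symbol has more than 1 reading, averaged 1339 ± 265 CPM with arsenite and 1567 ± 333 CPM in controls (SD, n = 3 each; adjusted p = 0.627).

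In the cell wall group, MpCSLD9 (Mp7g07800), a cellulose synthase-like D protein, had 873, 1025 and 1064 CPM with arsenite, against 778, 1245 and 1144 CPM in controls. It was the most abundant of 10 such genes by CPM and did not pass (adjusted p = 0.869). Of these 10 genes 2 rose, where the background was 2.04% higher. They were MpCSLD1 and MpCSLD7, each at 54 CPM with arsenite, against 36 and 29 CPM in controls. MpGH19.15 (Mp7g04510), of the family of plant chitinases, averaged 811 ± 75.7 CPM with arsenite and 960 ± 133 CPM in controls (SD, n = 3 each; adjusted p = 0.422). The transcription factor gene MpWRKY11 (Mp1g24950) had 1155, 1120 and 1311 CPM with arsenite, against 1504, 1622 and 1450 CPM in controls, without overlap (log2 fold change -0.33 ± 0.13, SE, adjusted p = 0.226). It held 70.6% of the CPM of 14 WRKY genes with arsenite and 78.1% in controls, and 0 of the 13 tested passed with edgeR. The sum over the WRKY genes varied widely with arsenite, at 1731 ± 409 CPM, against 1952 ± 124 CPM in controls (SD, n = 3 each). MpMHK1 (Mp7g15760) averaged 686 ± 42.0 CPM with arsenite and 846 ± 43.2 CPM in controls (adjusted p = 0.205).

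The order of abundance was largely kept. Of the 148 genes, 134 were also in ranks 1 to 150 of the arsenite libraries, and 10 of the 12 highest were the same in both groups. Over the 148 genes, Spearman's rho between the 2 rank orders was 0.901, a description across genes that share libraries. The 14 others moved to ranks as low as 260, held by Mp3g18890, and included Mp7g05880 at 226, MpDAHP at 218 and MpMHK1 at 196. Genes near the limit of the rule differed by less than their spread. Just inside were Mp8g05670, Mp2g10580 and Mp1g10230, with control means of 821, 817 and 815 CPM, and just outside Mp7g11470, Mp8g17650 and Mp8g01210, with 811, 804 and 803 CPM.

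The 148 genes did not have the smallest spread between replicates, nor the widest. The median CV (SD over mean of 3 libraries) of the 148 genes was 12.5% with arsenite and 14.6% in controls, with quartiles of 8.75% and 16.5% with arsenite and 9.86% and 18.6% in controls. Counting error alone, averaged over all 6 libraries of a gene, would give 0.708% or less for any of the 148. Genes of control ranks 501 to 2000, with fewer reads each, had medians of 10.4% with arsenite and 9.63% in controls, and those of ranks 2001 to 5000 had 10.4% with arsenite and 9.32% in controls. Medians were 13.2% with arsenite and 12.4% in controls at ranks 151 to 500, and 12.7% with arsenite and 11.6% in controls at ranks 5001 to 10000. Tested genes past rank 10000 had 27.9% with arsenite and 27.1% in controls, where counting error alone had a median of 14.3%. Over all tested genes the medians were 14.2% with arsenite and 12.9% in controls.

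**Figure D3:**
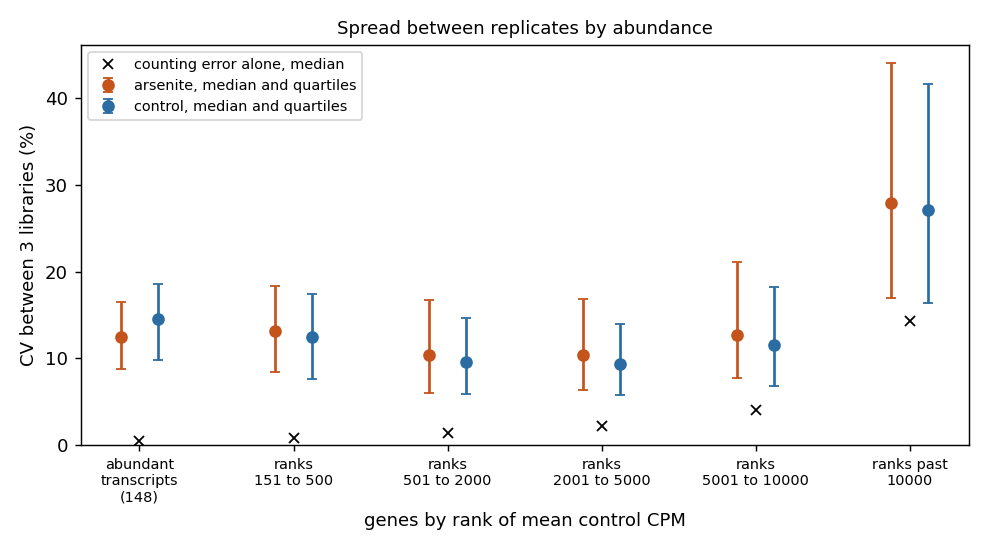
CV between the 3 libraries of a group, in percent, for the 148 abundant genes and for tested genes in bins of control rank. Points are medians, bars run between the quartiles, arsenite is left of control, and crosses give the median expected from counting alone. The abundant genes had medians of 12.5% with arsenite and 14.6% in controls, above those of ranks 501 to 5000 and below those past rank 10000.

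The widest spread in both groups was that of Mp7g02900, with 960, 2136 and 1488 CPM with arsenite, and 874, 1823 and 1606 CPM in controls. Its CV was 38.6% with arsenite and 34.7% in controls, and replicate 1 was the lowest in each group. Mp6g04110 (34.3%) and Mp1g29620 (29.9%) came next with arsenite together with Mp8g15740 (30.6%), all 3 highest in arsenite replicate 1. In controls, Mp8g15740 (28.6%), Mp2g19370 (28.4%) and Mp3g10650 (25.8%) followed. The smallest CV with arsenite was 1.15%, in Mp1g12950, at 950, 929 and 939 CPM, followed by MpDAHP (2.04%), Mp1g00920 (2.35%) and MpSOD4 (3.06%). Among controls it was 1.35%, in Mp2g02000, at 1004, 980 and 983 CPM, followed by MpPIP2 (1.97%), Mp8g03230 (2.76%) and MpSOD4 (3.19%).

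Within each group, the total of the 148 genes hid opposed deviations of its members. Control replicate 2 was the highest control for 64 of the 148 genes and the lowest for 69, which leaves 15 between. Over all 13544 tested genes it was also at an extreme for many. It was the highest control for 2278, 888 and 1006 genes whose highest arsenite library was replicate 1, 2 and 3. It was the lowest control for 3129, 1018 and 1820 genes whose lowest arsenite library was replicate 1, 2 and 3. With 3 controls, every gene has a highest and a lowest one, so any library stands at an extreme for many genes by construction. These counts alone therefore do not show whether opposed deviations went beyond the 148 genes. The 64 genes held 10.1%, 13.2% and 10.8% of the reads in controls, and the 69 genes 10.6%, 8.10% and 10.2%. These splits were set on the control libraries, and the arsenite libraries played no part in them. In the arsenite libraries the 64 genes held 12.3%, 10.6% and 9.30%, and the 69 genes 9.35%, 10.7% and 10.3%. Arsenite replicate 1 is singled out here by its own values, and the genes share the libraries, so its counts are a description. Arsenite replicate 1 was the highest arsenite library for 53 of the 64 genes (82.8%), and the same share was 54.6% of all tested genes that were highest in control replicate 2. It was the lowest for 53 of the 69 (76.8%), beside 52.4% of all tested genes that were lowest in control replicate 2.

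Genes with a symbol fell on both sides. The 64 included MpFBA2, MpCAT2, MpWRKY11, MpCSLD9 and MpDAHP, and the 69 included MpEF1, MpRACK1, MpGRP7, MpARFA2, MpTIP1, MpACT1, MpAVP3, MpSOD4, MpAPX1 and MpMHK1. Across the 148 genes, the deviations of arsenite replicate 1 and control replicate 2 from their group means had r = 0.742, and over all 13544 tested genes r = 0.408, as a description across genes that share the libraries. This was the highest of the 9 pairings of an arsenite with a control library over the 148 genes, and the lowest was -0.741, for arsenite replicate 3 with control replicate 2. Deviations of 3 libraries from their own mean are tied to each other, so the 9 values are not independent. Replicates with the same number gave r of -0.520, -0.365 and 0.588 for numbers 1, 2 and 3 over the 148 genes. The median log2 fold change with arsenite was -0.081 for the 64 genes and 0.0072 for the 69. None of the 3 lowered genes was in either set. What set these libraries apart was not tested, and in whole thalli fewer cells of a type and less RNA per cell cannot be told apart.

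**Figure D4:**
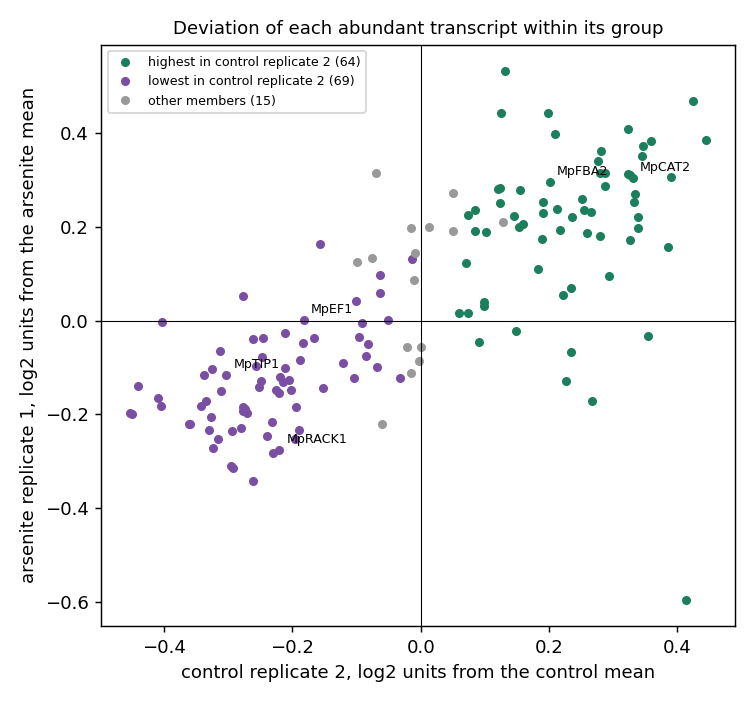
Deviation of each of the 148 genes in control replicate 2 (horizontal) and in arsenite replicate 1 (vertical), each in log2 units from the mean of its own group. Colours mark the 64 genes highest in control replicate 2, the 69 lowest there and the 15 others, and most points lie at the lower left and upper right, with Mp7g02900 the lowest point at the right.

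By their IDs, the 148 genes came from all 8 autosomes and from no U, V or unplaced ID. Chromosome 2 held 30 of them, 1.63% of its 1843 tested genes, and chromosome 7 held 22 (1.58% of 1390), while chromosome 5 held 6 (0.365% of 1643). The share over all tested genes was 1.09%, and the other autosomes lay between 0.864% (chromosome 8) and 1.43% (chromosome 4). The 22 genes of chromosome 7, where 2 of the 3 lowered genes lie, took 3.24% of the reads with arsenite and 3.76% in controls.

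There were 6 neighbouring pairs, formed by 11 genes, and in the reference table the spans of 0 pairs overlapped. Mp2g12010, Mp2g12020 and Mp2g12030 stood side by side, at 2628, 2344 and 3823 CPM with arsenite and 2147, 1878 and 4030 CPM in controls. The neighbours Mp4g15070 and Mp4g15080 had close levels, 2887 and 3041 CPM with arsenite and 2469 and 2270 CPM in controls. Mp7g05880 with Mp7g05890 was the 1 pair in which a gene passed, and there both did.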

How the data were processed

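The deposited values were whole-number read counts per gene ID, 1 file per sample. Per the file names, the authors counted with htseq-count on Galaxy. The aligner, genome build, annotation, strand setting and tool versions are not given in any source used here, so antisense or overlapping genes cannot be told apart and counts of similar genes are uncertain. The files held 0 rows without a gene ID, and 2 of the 6 end their lines differently from the rest.

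Groups came from the sample titles. CPM were computed on file totals. All 6 libraries were fitted with edgeR 4.0.16 in R 4.3.3 (filterByExpr, TMM factors from 0.980 to 1.03, quasi-likelihood test, Benjamini-Hochberg adjustment over all 13544 tested genes, threshold 0.05), tested first on simulated data. SEs and 95% intervals were derived from each log2 fold change and the F value of its test. DESeq2 1.42.0, voom (limma 3.58.1), other scalings, no filter, a replicate block, each library left out and other rank limits were alternatives. Libraries of a group differed beyond sampling noise, with a chi-square of 39.4 per degree of freedom or more.

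Same-numbered replicates had deviations correlated at 0.0084, -0.111 and 0.187 over all tested genes, so the numbers were not taken to pair samples. Symbols came from a table of another assembly (MpTak2_v7.1), matched by ID number for 17671 of 18391 locus tags. It gave names, neighbours and the spans by which overlap of neighbouring pairs was checked, and no other coordinates or lengths are used. Named genes were the 12 highest, called genes without overlap and symbols (the 12 highest). The 4 widest and 4 tightest in each group and the 3 on each side of the limit were also named. Other named genes lie outside this rule, among them MpRACK1, MpCSLD9, MpGH19.15, MpAPX1 and MpMHK1. The genes and lists were chosen with earlier results of these data known.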

Additional observations from a re-analysis of the deposited data

How the results depend on the processing

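The 3 lower genes of the 148 stayed 3 with DESeq2's size factors in edgeR and with voom, and became 4 when scaled by library totals alone and without the filter. DESeq2 called 15 of the 148 (6 higher, 9 lower) and 1526 of all genes, and voom called 5, of which 2 were higher. With a replicate block 0 of the 148 were called, so 0 were lower, and 364 of all genes were. A threshold of 0.01 left 0, so 0 lower, and 57 of all genes. With each library left out, 0 to 2 of the 148 were called, 0 to 2 of them lower and 0 higher, with 39 to 461 calls over all genes against 566, and the median log2 fold change ran from -0.044 to 0.0057. Ranks 1 to 100 held 18.6% of reads with arsenite and 19.1% in controls. Ranks 1 to 200 held 26.6% and 27.3%, with 8 calls, 1 higher and 7 lower. Ranking over all 6 files gave 1 higher, and ranking over the arsenite files gave 5 calls, 3 of them higher, with a median of 0.0072. That last change follows from which libraries did the ranking, and for the others the cause was not tested. The number retained in arsenite ranks 1 to 150 was 126 to 133 without single arsenite libraries, and the share of reads was 22.5% to 23.6% with arsenite and 23.4% to 23.7% in controls. Of the 107 comparisons of a summary value with an alternative, 67 stayed close and 40 moved. The lowest count of the 148 genes in any library was 11703 reads. Counting error, averaged over all 6 libraries of a gene, was 0.708% or less.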

Other observations

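Outside the genes set apart by the rule, 15 stood in ranks 1 to 150 of the arsenite libraries but not of the controls. The arsenite levels chose them, so their values are a description. MpGH16.42 (Mp8g18980), of a family of enzymes that act on cell wall glucans, had 833, 967 and 721 CPM with arsenite, against 288, 452 and 425 CPM in controls, and ranked 138 with arsenite, against 406 in controls. MpCE8.7 (Mp3g01170), of the pectin methylesterase family, had 728, 1184 and 1049 CPM with arsenite, against 555, 517 and 716 CPM in controls. Mp6g15460 had 1179, 1255 and 1026 CPM with arsenite, against 732, 625 and 794 CPM in controls. These 3 genes had no overlap between groups. MpGH17.4 (Mp2g08760) overlapped, at 796 CPM with arsenite and 753 CPM in controls, and held rank 150. The genes not named here had no symbol.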
